A study of Arabidopsis thaliana with 6 samples.

Results

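PIF1, a helix-loop-helix factor that holds back light responses in dark-grown seedlings, was mapped on the Arabidopsis thaliana genome. The genes considered here are FHY1 (AT2G37678), FHL (AT5G02200), FHY3 (AT3G22170), FAR1 (AT4G15090) and PKS1 to PKS4 (AT2G02950, AT1G14280, AT1G18810 and AT5G04190), 8 of 27444 protein-coding nuclear genes. They were chosen by name as phytochrome signalling genes, and each was given every PIF1 peak whose summit lay inside the gene or within 3000 bp of either end. The samples were 3 libraries from transgenic seedlings overexpressing Myc-tagged PIF1 and 3 libraries from wild-type seedlings, which have no tag and give the background of the anti-Myc antibody. All seedlings were taken whole after 3 h of white light and 3 d of darkness at 21 °C. The native amount of PIF1 was not mapped, and chromatin of whole seedlings does not show in which cells a site was bound.

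Phytochrome A, the photoreceptor of far-red and very weak light, enters the nucleus after activation with the help of FHY1 and its homologue FHL. FHY3 and FAR1, DNA-binding proteins derived from transposases, directly activate transcription of FHY1 and FHL. The PKS family was named for PKS1, a substrate of phytochrome kinase activity that binds phytochromes, and PKS1, PKS2 and PKS4 also act with the blue-light receptor PHOT1 and its partner NPH3 in bending towards light. PIF proteins are themselves bound and removed by light-activated phytochromes, so these genes act in the same pathway as the factor that was mapped.

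The authors called peaks separately for each PIF1 library against the equally numbered wild-type library, which gave list 1 with 4578 peaks, list 2 with 12776 and list 3 with 7678. After removal of excess duplicate tags, PIF1 libraries 1, 2 and 3 held 14209334, 5825479 and 5721184 tags, against 17323572, 6134032 and 7435352 tags in the wild-type libraries. Every peak value below is the authors' own: the tags of the PIF1 library in the peak, and a fold enrichment of those tags over the local wild-type background. The median fold enrichment of all peaks was 2.71 in list 1, 5.29 in list 2 and 3.87 in list 3. Because the lists differ in this way, each fold enrichment is also given as a percentile among all peaks of its own list, where 100 is the highest.

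FHL had the strongest PIF1 signal of the 8 genes and FHY1 the next strongest, each in lists 2 and 3 and neither in list 1. The FHY1 signal was shared with a neighbour: its list 2 summit (fold enrichment 11.11) and a list 3 summit (5.59) lay inside AT2G37680. FAR1 and PKS2 had weaker overlapping peaks in lists 2 and 3 that lay nearer to other genes. Counting only the nearest gene, FHL alone had a region of at least 2 lists (15.0% of all genes). PKS1 and PKS3 had peaks of lists 2 and 3 that did not overlap each other, and FHY3 and PKS4 had peaks of list 2 alone. List 2 held a peak near 8 of the 8 genes (59.5% of all protein-coding genes), list 3 near 6 of 8 (41.6%) and list 1 near 0 of 8 (26.3%). A region in which peaks of at least 2 lists overlapped by at least 1 bp lay near 4 of the 8 (30.0% of all genes), and a region of all 3 lists near 0 of 8 (9.51%). Without asking for overlap, 6 of the 8 had peaks of at least 2 lists (40.5%). The 4 genes rest on lists 2 and 3 together: without replicate 1 the count was 4 (26.1% of all genes), and it was 0 without replicate 2 (10.5%) and 0 without replicate 3 (13.0%).

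**Figure D1:**
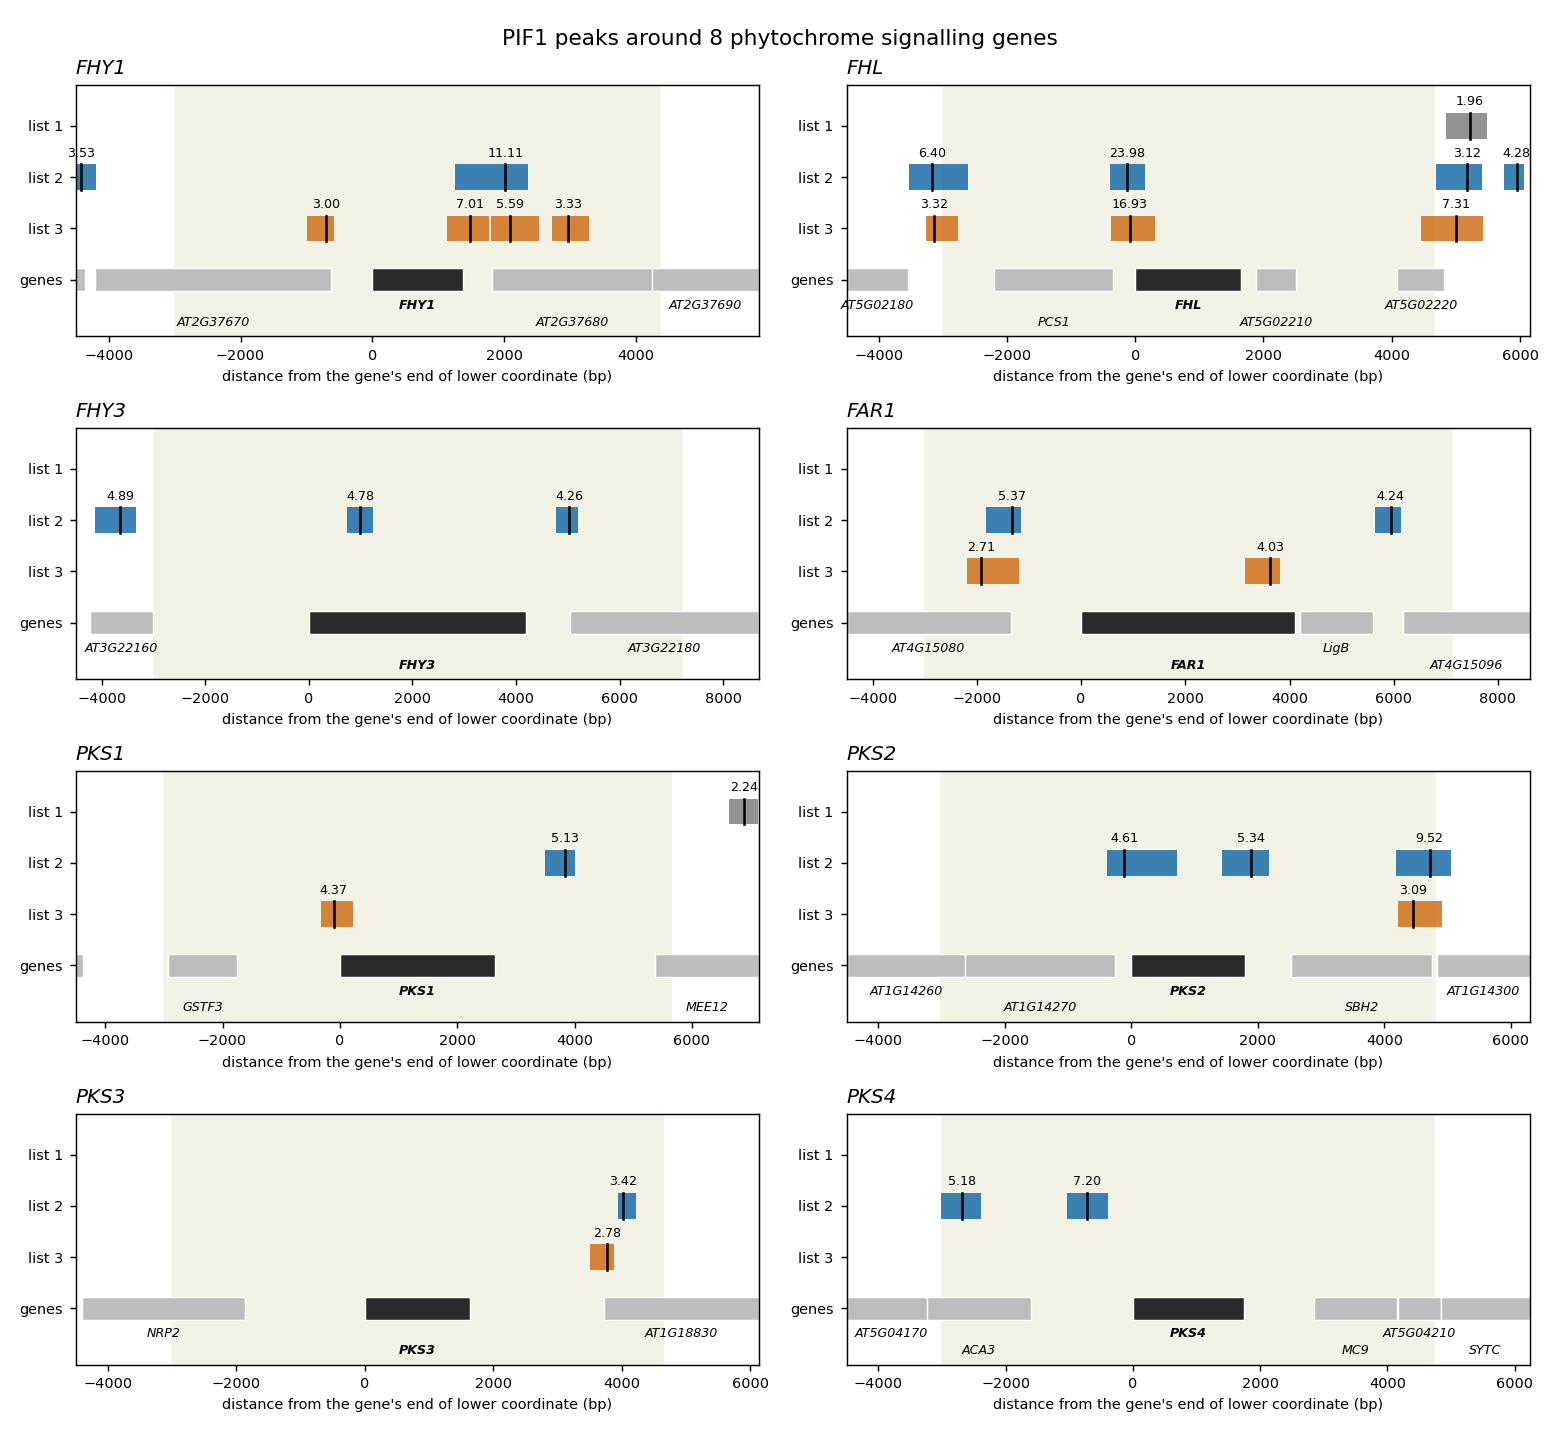
PIF1 peaks around each gene, with the distance in bp from the gene's end of lower coordinate on the horizontal axis and the 3 peak lists and the genes as rows. Coloured bars are peaks, black ticks their summits, numbers their fold enrichments, dark boxes the named gene, grey boxes its protein-coding neighbours, and the shaded band the 3000 bp window. No peak of list 1 has its summit in a band, and the peaks at FHL (23.98 and 16.93) stand between PCS1 and FHL.

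At FHL, list 2 held a peak at chromosome 5, 436978 to 437526 (TAIR10), with 462 tags and a fold enrichment of 23.98, and list 3 a peak at 436990 to 437676 with 380 tags and 16.93. List 1 held none in the window. These values stood at percentile 98.8 of list 2 and percentile 99.2 of list 3. Scaled to 1000000 filtered tags of the library, the peaks held 79.3 tags in list 2 and 66.4 in list 3, where the median peak held 14.1 and 10.5. The summits lay 131 and 88 bp outside FHL and 43 bp from each other, in the short interval between FHL and PCS1, an aspartic protease gene. FHL was the nearer gene, with PCS1 216 and 259 bp away. The strand of the genes was not used here, so which end of FHL faces the peak is not given.

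Among regions of lists 2 and 3 without a list 1 peak, that at FHL had the highest mean percentile in those 2 lists. This comparison was chosen after the values were seen. Peaks of lists 2 and 3 overlapped in 4126 regions, and 2736 of these held no peak of list 1. By the mean of its percentiles in lists 2 and 3 (99.0), the FHL region ranked 66th among the 4126 and 1st among the 2736. In 44 other regions the fold enrichments were at least as high as at FHL in both lists, and 44 of those 44 held a peak of list 1. That follows from the rank of 1st, since such regions have at least as high a mean percentile, and it adds nothing to the rank. Their fold enrichments in list 1 ran from 4.37 to 16.25, with a median of 8.395. Of the 495 regions at least as strong as FHY1 in both lists, 423 held a peak of list 1, so other strong regions lacked one too. The nearest list 1 peak to FHL lay 3565 bp away, with a fold enrichment of 1.96, beside AT5G02220. What set library 1 apart at FHL was not tested.

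**Figure D2:**
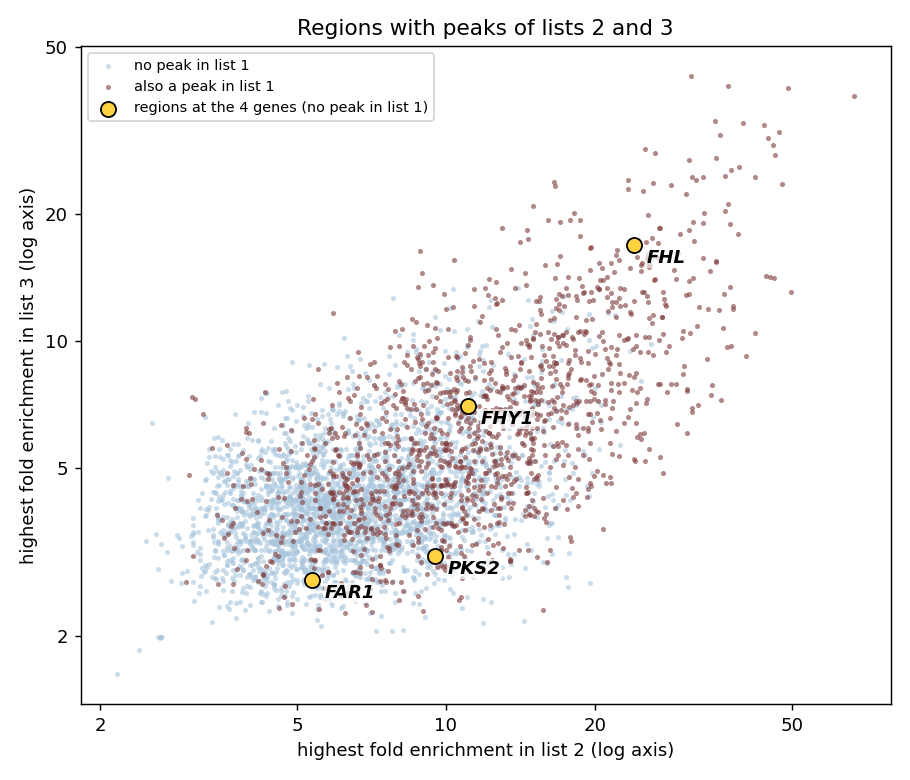
Each point is 1 of the 4126 regions with peaks of lists 2 and 3, placed by its highest fold enrichment in list 2 (horizontal, log axis) and list 3 (vertical, log axis), dark where list 1 also held a peak and pale where it did not. The yellow points are the regions at FHL, FHY1, PKS2 and FAR1, none of which held a peak of list 1. The FHL point (23.98 and 16.93) lies among dark points.

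At FHY1, list 2 held 1 broad peak at chromosome 2, 15802667 to 15803783, with 242 tags and a fold enrichment of 11.11 (percentile 91.0). List 3 divided the same stretch into a peak at 15802554 to 15803187, with 104 tags and 7.01 (percentile 90.6), and a peak at 15803224 to 15803942, with 95 tags and 5.59 (percentile 83.4). The list 3 summit at 110 bp outside FHY1 had FHY1 as its nearest gene, 340 bp from AT2G37680. The list 2 summit at 646 bp and the other list 3 summit at 711 bp lay inside AT2G37680, 65 bp from each other. Of the 3 summits in this stretch, 2 thus lay inside the neighbouring gene. The FHY1 region ranked 653rd among the 4126 regions, and 85.5% of the 495 regions at least as strong in both lists held a peak of list 1. List 3 held further weak peaks with 53 and 52 tags, inside AT2G37670 (fold enrichment 3.00) and inside AT2G37680 (3.33).

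The authors' false discovery rate, made by swapping PIF1 and wild type, was lowest at these 2 genes. It was 0% for the FHL peak of list 2 and 3.59% for the FHY1 peak of list 2, in a list where 10.6% of peaks had 5% or less. In list 3 it was 8.33% at FHL, 59.89% for the stronger FHY1 peak and 100% for 8 of the 10 peaks near the genes, as for 82.5% of all peaks of that list. The other peaks of list 2 near the genes had rates from 13.50% to 61.80%. In list 1 the rate was 100% for each of its 4578 peaks, so every list 1 peak named in this text carries it, also in regions of all 3 lists.

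FHY3 and FAR1, the activators of FHY1 and FHL, had weaker peaks, and those inside the genes were each held by 1 list. At FHY3, list 2 held a peak inside the gene at chromosome 3, 7822726 to 7823231, with 50 tags and a fold enrichment of 4.78 (percentile 37.6). A further list 2 peak, with 50 tags and 4.26 (percentile 23.3), lay 826 bp outside FHY3 and 14 bp from AT3G22180. Neither list 1 nor list 3 held a peak in the FHY3 window. Both FHY3 values lie below the list median of 5.29.

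At FAR1, list 3 held a peak inside the gene at chromosome 4, 8617208 to 8617875, with 62 tags and a fold enrichment of 4.03 (percentile 56.4), where lists 1 and 2 held none. The region shared by lists 2 and 3 lay at the other side, at 8611868 to 8612899, with 83 tags and 5.37 in list 2 (percentile 51.8) and 104 tags and 2.71 in list 3 (percentile 7.96). Its summits stood 603 bp apart, 1319 and 1922 bp outside FAR1. The first was 32 bp from AT4G15080 and the second inside it. With peaks joined only where their summits lay within 200 bp, this region was not counted for FAR1. A last list 2 peak, with 58 tags and 4.24, lay 1825 bp from FAR1 and closer to AT4G15096 (247 bp) and LigB (340 bp).

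**Figure D3:**
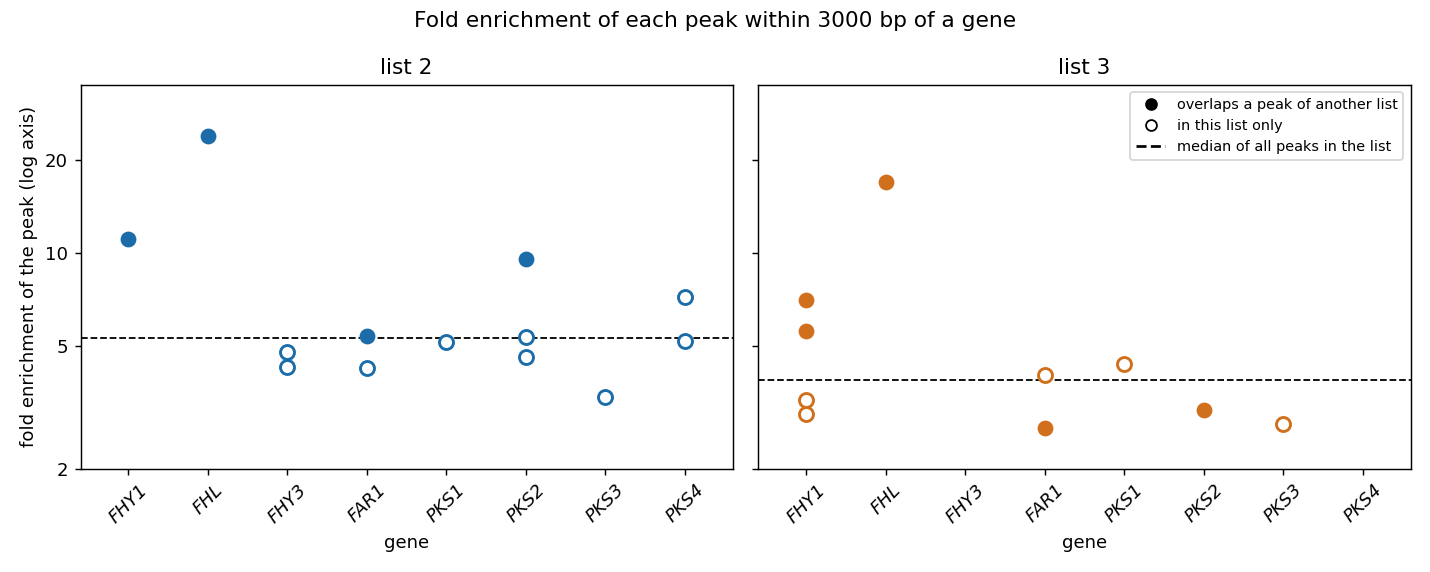
Fold enrichment (vertical, log axis) of each peak whose summit lay within 3000 bp of a gene, by gene, in list 2 (left) and list 3 (right). Filled circles are peaks that overlap a peak of another list, open circles peaks of that list alone, and the dashed line the median of all peaks of the list (5.29 and 3.87). FHL and FHY1 stand highest in each list, while the points of FHY3 and PKS3 lie under the dashed line.

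Among the PKS genes, PKS2 had the most peaks and PKS4 the highest fold enrichment of a peak whose nearest gene was the PKS gene itself. At PKS2, list 2 held peaks on either side of the gene. One at chromosome 1, 4877130 to 4878229, had 170 tags and a fold enrichment of 4.61, with its summit 115 bp outside PKS2 and 135 bp from AT1G14270. Another at 4878944 to 4879691 had 110 tags and 5.34, with its summit 94 bp outside PKS2. Neither list 1 nor list 3 held a peak at either place. The region of lists 2 and 3 near PKS2 was farther off, at 4881686 to 4882557, with 158 tags and 9.52 (percentile 86.9) in list 2 and 74 tags and 3.09 (percentile 20.2) in list 3. Its summits lay 2913 and 2650 bp from PKS2 and inside SBH2, a sphingoid base hydroxylase gene.

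At PKS1, list 3 held a peak at chromosome 2, 853755 to 854308, with 61 tags and a fold enrichment of 4.37 (percentile 65.5). Its summit was 104 bp outside the gene. List 2 held a peak on the opposite side, at 857575 to 858090, 1190 bp outside PKS1, with 65 tags and 5.13 (percentile 46.9). PKS1 was the nearest protein-coding gene of both, but the peaks did not mark the same site.

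PKS4 had list 2 peaks alone, at chromosome 5, 1149859 to 1150499, with 91 tags and a fold enrichment of 7.20 (percentile 75.0), and at 1147876 to 1148497, with 98 tags and 5.18 (percentile 47.9). The first summit lay 715 bp outside PKS4, between it and ACA3 (887 bp away), and the second lay inside ACA3. At PKS3, list 2 held 29 tags and 3.42 (percentile 4.88) at chromosome 1, 6489461 to 6489740, and list 3 held 36 tags and 2.78 (percentile 9.63) at 6489016 to 6489390. These peaks did not overlap, lay 2384 and 2126 bp from PKS3 inside AT1G18830, and were among the weakest of their lists.

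In all, 23 peaks lay in the windows of the 8 genes, 13 of list 2 and 10 of list 3. Of these, 2 had their summit inside the named gene (at FHY3 and FAR1), 11 lay between protein-coding genes and 10 lay inside a neighbouring gene. The named gene was the nearest protein-coding gene for 10 of the 23 and another gene for 13. Counting only the nearest gene, FHL alone of the 8 had a region of at least 2 lists (15.0% of all genes had one). Of the 23 peaks, 9 belonged to a region of at least 2 lists, and the median percentile of all 23 was 47.9, where 50 is the middle of a list. The peaks closest to the edge of the window were that of PKS2 at 2913 bp, inside it, and those of FHL at 3139 and 3163 bp, outside it (fold enrichments 3.32 in list 3 and 6.40 in list 2).

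Other genes of the pathway were counted in the same window, from 4 lists of selected genes. Of 15 partners of phytochrome A signalling, 10 had a region of at least 2 lists and 5 a region of all 3, against 30.0% and 9.51% of all genes. Without replicate 2 the count of 10 was 5 (10.5% of all genes), and without replicate 3 it was also 5 (13.0%). The same count was 6 when only the nearest gene was counted (15.0%) and 6 with peaks of at least 5-fold (9.85%). Of the 5 with a region of all 3 lists, those with the highest mean percentile were PHYB, the main red-light photoreceptor, HFR1, a helix-loop-helix inhibitor of PIF proteins, SPA1, a partner of the ubiquitin ligase COP1, and EID1, an F-box protein that acts on phytochrome A signals. At PHYB the region, 140 bp outside the gene, reached 8.36-fold in list 1, 39.06-fold in list 2 and 25.89-fold in list 3. That of HFR1, 1425 bp away and nearer to AT1G02350, had 6.19, 18.69 and 19.44 in the same order, and that of SPA1, 368 bp away, had 3.76, 17.52 and 13.37. The EID1 region, with 4.63, 8.30 and 7.30, lay inside AT4G02450. PHYA, named after its values were seen because FHY1 and FHL act on its product, had a region inside the gene with 15.12 and 7.82 in lists 2 and 3. It had no peak of list 1 in its window. That lack is common, as 8 of the 15 partners and 26.3% of all genes had a list 1 peak there.

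The 12 relatives of FHY3 and FAR1, the FRS genes, had no region shared between lists within 3000 bp. Of them 8 had a peak of list 2 (59.5% of all genes), 2 of list 3 (41.6%) and 1 of list 1 (26.3%), and 0 had a region of at least 2 lists (30.0%). Without asking for overlap, 3 had peaks of at least 2 lists (40.5%). The count of 0 became 2 with a window of 5000 bp (40.2%) and 1 when any base of a peak was counted (32.7%). Another 6 genes are known to be activated by FHY3 or FAR1, namely ELF4, CCA1, COP1, HEMB1, ARC5 and MIPS1. COP1 was also counted among the 15 partners of phytochrome A signalling. Of the 6, 3 had a region of at least 2 lists (30.0% of all genes) and 0 a region of all 3 (9.51%). The count of 3 was 0 without replicate 2 (10.5%) and 0 without replicate 3 (13.0%). Of the 4 phototropism genes PHOT1, PHOT2, NPH3 and RPT2, whose products work with PKS proteins, 2 had a region of at least 2 lists (30.0%). That count was 1 without replicate 2 (10.5%) and 1 without replicate 3 (13.0%). RPT2 alone of the 4 had a region of all 3 lists (9.51% of all genes), with 2.60, 8.43 and 3.46. It lay 2391 bp from RPT2 and inside NET4B.

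**Figure D4:**
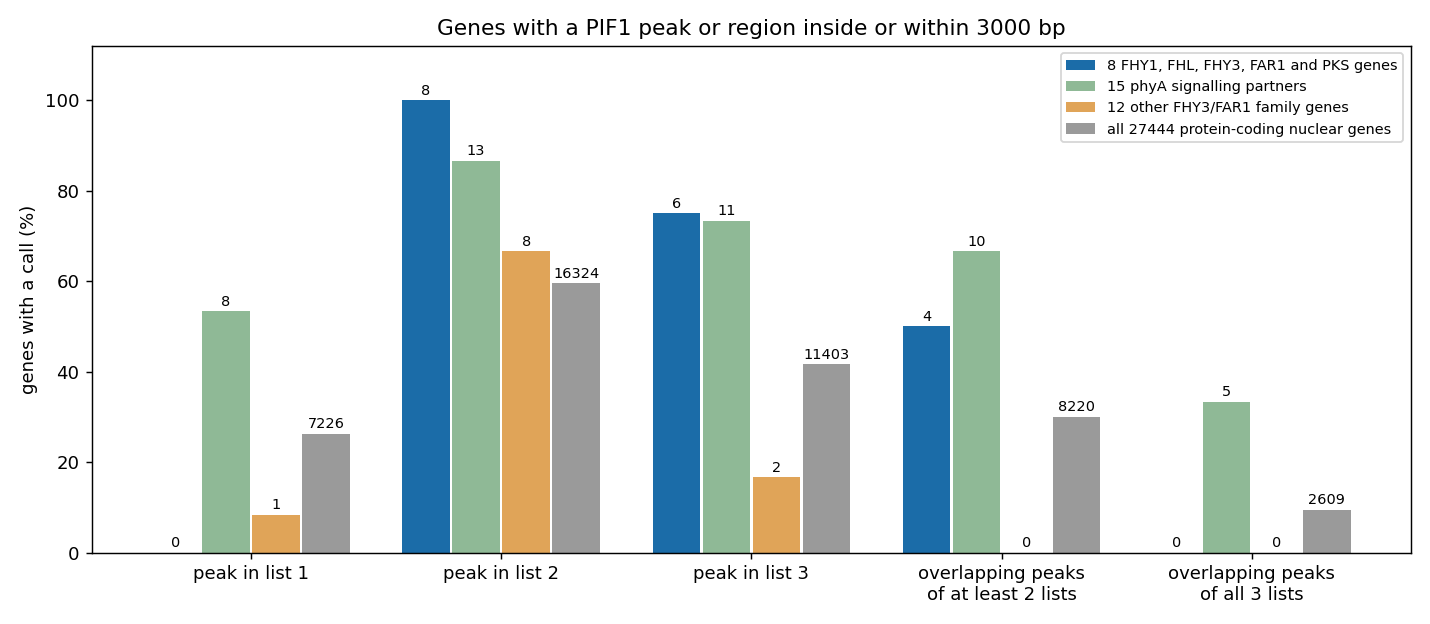
Percentage of genes (vertical axis) with a peak of each list, with overlapping peaks of at least 2 lists and with overlapping peaks of all 3, inside or within 3000 bp, for the 8 genes, 15 phytochrome A signalling partners, 12 FRS genes and all protein-coding nuclear genes. Numbers above the bars are counts of genes. The 8 genes have 0 calls in list 1 and 8 in list 2, and the FRS genes have 0 overlapping calls.

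At PIF1 itself, the tagged gene, peaks were held by all 3 lists, with the highest fold enrichments 4.03, 5.42 and 3.38 in lists 1, 2 and 3. The line carries added PIF1 sequence, whose signal cannot be told apart here from binding at the gene, so these peaks are not read as a measure of binding. Beside list medians of 2.71, 5.29 and 3.87, they are also a weak check of the labels.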

How the data were processed

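Peak lists were deposited for 3 chromatin immunoprecipitation comparisons of a PIF1-Myc library with a wild-type library. Each library pooled 4 immunoprecipitations of 2 biological replicates, per the labels' protocols. Peaks were called per library, not on pooled samples, with a p cutoff of 1e-05, per the file headers. Alignment to TAIR10 and peak calling are credited to Bowtie 0.12.7 and MACS 1.4.1 in the submitters' processing notes, beside CASAVA 1.8.0. The deposited tag counts are unscaled counts of the PIF1 library. The deposited fold enrichment is a ratio over local wild-type background, with the smaller data set scaled towards the larger, per the file headers. The deposited score is 10 times the negative log10 of the caller's p, and the deposited false discovery rate is in percent. Redundancy stood at 13%, 70% and 66% in PIF1 libraries 1, 2 and 3, against 24%, 61% and 15% in wild type, per the file headers.

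A summit was placed at start plus summit minus 1, overlapping peaks were joined, and a region was placed at the mean of its summits. Gene positions without strand were taken from the RefSeq table of TAIR10.1. Since that name differs from TAIR10, none of its coordinates are printed. As a rough check, 35.7% of regions of at least 2 lists lay within genes, and 51.6% did so after a shift of 1000 bp. This single shift cannot show a small offset between the 2 builds, and smaller shifts were not tested. PKS3 stands as AT1G18810 and PIF1 as PIL5 in that table. The genes, lists and windows were chosen with earlier results of these data known. Named were the 8 genes, the nearest gene of each peak, PIF1, and up to 4 genes a list with regions of all 3 lists, by mean percentile. The rule for the genes most like the strongest one needed a region of all 3 lists and named none. No test was run, since PIF1 and wild type were compared only in the authors' peak calls. Scripts (Python 3.11.15, pandas 2.3.3) were tested on simulated data. Sequences, motifs and protein identities were not analysed here.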

Additional observations from a re-analysis of the deposited data

How the results depend on the processing

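The counts rest on the window, the peak threshold and lists 2 and 3. Of 96 recomputed counts, 64 stayed within 1.5 times the reported one, where counts of 0 that stayed 0 are included in the 64. The share of all genes under the same setting stands in parentheses. A window of 1000 bp gave 5 of the 8 genes a peak in list 2 (40.1%) and gave FHY1 and FHL, 2 genes, a region of at least 2 lists (17.5%). Of the 36 other pathway genes 9 then had such a region, against 14 with 3000 bp. A window of 5000 bp gave 2 genes, FHL and PKS1, a peak in list 1 (36.3%) and 1, FHL, a region of all 3 lists (13.9%). Counting any base of a peak also gave 1 gene, FHL, a region of all 3 lists (10.8%). Peaks of at least 5-fold left 2 genes in list 3 (11.4%), and 2, again FHY1 and FHL, with a region of at least 2 lists (9.85%), with 7 other pathway genes. Counting the nearest gene alone left 5 genes in list 2 (33.4%) and 1 with a region of at least 2 lists (15.0%), with 9 other pathway genes. Joining summits within 200 bp left 2 genes with such a region (26.3%). Leaving out 1 replicate gave 0 to 4 of the 8 genes and 6 to 14 of the other pathway genes. At PKS2 in list 2, the peak nearest to the gene had a fold enrichment of 5.34, against 9.52 for the strongest one, which lay inside SBH2. At PKS4 in list 2, the strongest peak by score had a fold enrichment of 5.18, against 7.20 for the strongest by fold. Peaks of 2 lists without overlap (6 genes) were an alternative chosen after seeing the data. The motif alternatives were not run. No paired analysis was possible because the result comes from no test: each list already sets a PIF1 library against the wild-type library of its number. Shallow PIF1 libraries 2 and 3 and the low fold enrichments of list 1 limit what a missing peak shows.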

Other observations

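Farther from FHL, outside the 3000 bp window and within 8000 bp, lay 3 more regions of at least 2 lists. The region of all 3 lists beside AT5G02220 reached 1.96-fold in list 1, 3.12-fold in list 2 and 7.31-fold in list 3, with summits 3565, 3517 and 3349 bp from FHL. The region beside AT5G02180 had 6.40 and 3.32 in lists 2 and 3, and that nearest to AT5G02230 had 6.00 and 4.10, 7016 and 7062 bp from FHL. Their percentiles in lists 2 and 3 ran from 1.82 to 91.6, below those of the FHL peaks.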
